A study of Homo sapiens with 48 samples.

Results

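The proteasome subunit genes were taken as the genes of the count table whose symbol was PSM followed by a letter from A to G and a number, with at least 1000 counts in total over the 48 libraries. There were 46 such genes among the 19509 genes of the table. Of the 48 genes with such a symbol, PSMA8 had 0 counts and PSMB11 had 30, and neither was a member. The libraries came from IMR90 cells, a line of human fibroblasts from normal lung tissue, that carried RAS G12V fused to the oestrogen receptor (ER:RAS). All 6 groups carried this fusion. Cells were given DMSO, the solvent, or 4-hydroxytamoxifen (4OHT), which switches on the fusion protein, for 6 days. They were then transfected with a non-targeting siRNA (siNT1 or siNT2), an siRNA against SF3B1 (siSF3B1-13 or siSF3B1-16) or an siRNA against RBM39 (siRBM39-06 or siRBM39-08), and RNA was collected after 2 more days in 0.5% serum. Each siRNA had 4 replicates per treatment, so each of the 6 groups of treatment and target held 8 libraries, DMSO siNT, 4OHT siNT, DMSO siSF3B1, 4OHT siSF3B1, DMSO siRBM39 and 4OHT siRBM39. As a model this is 1 cell line with an inducible transgene, and vector cells without the fusion were not analysed here. In bulk RNA, fewer cells of a kind and less RNA per cell cannot be told apart.

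The proteasome degrades proteins tagged with ubiquitin. Its barrel-shaped core has outer rings of alpha subunits (PSMA genes) and inner rings of beta subunits (PSMB genes), of which PSMB5, PSMB6 and PSMB7 carry the proteolytic sites. The regulatory particle that caps the core unfolds the substrate with the PSMC ATPases and receives and de-ubiquitinates it with the PSMD subunits. Cells exposed to interferon replace the catalytic subunits with PSMB8, PSMB9 and PSMB10, the immunoproteasome, and cap the core with the activator of PSME1 and PSME2, which together shape peptides for antigen presentation. The transcription factor NFE2L1 (NRF1) is known to raise the subunit genes together when proteasome activity falls short. SF3B1 is a core component of the U2 snRNP that recognises the branch point, and RBM39 is a splicing factor that joins the early spliceosome.

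Libraries held 31467221 to 52734636 counts. The study's methods describe replicates of in vitro work as independent experiments, while the labels do not say how the 4 libraries of a siRNA were grown. The p-values measure the spread between these libraries. Between the 2 non-targeting siRNAs no member was called (0 calls by edgeR in each treatment), and the share of all genes called between them was not taken. All replicate pairs differed by more than sampling noise. RefSeq lists a pseudogene named after 21 of the members, and reads of such copies could be split or lost in counting. The targeted genes were low where the labels place the siRNAs: SF3B1 was at 311 to 396 CPM (library-scaled counts) in DMSO siNT and at 30.4 to 35.2 in DMSO siSF3B1, and RBM39 was at 158 to 185 CPM in DMSO siNT and at 24.2 to 31 in DMSO siRBM39. RBM39 was itself higher in siSF3B1, by 0.83 on the log2 scale in DMSO and 1.06 in 4OHT, and SF3B1 was higher in siRBM39, by 0.46 in DMSO and 0.29 in 4OHT. All 8 fibroblast markers were above 1 CPM in each group. Their summed level was 51970 to 59092 CPM in DMSO siNT and 14364 to 15169 in 4OHT siNT, and 7 of the 8 markers fell with 4OHT. Of 9 measured markers of other cell types, 6 were below 1 CPM in all DMSO siNT libraries and 7 in all 4OHT siNT libraries, and the summed level of the 9 was 39 to 50.1 and 75.4 to 88.7 CPM, of which CD68, a lysosomal protein that fibroblasts also make, took 36 to 47.5 and 71.2 to 83.6 CPM. The part of these shifts in the results that follow was not tested.

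Proteasome subunit genes took a larger share of all counts in siNT cells given 4OHT than in those given DMSO. The share was 0.347 to 0.364% in DMSO siNT, with a median of 0.358%, and 0.540 to 0.558% in 4OHT siNT, with a median of 0.545%. In 4OHT siSF3B1 it was 0.446 to 0.474%, with a median of 0.464%. The 4OHT siSF3B1 libraries thus lay between the siNT groups and overlapped with neither. In 4OHT siRBM39 the share was 0.465 to 0.645%, with a median of 0.493%. Its highest value came from replicate 4 of siRBM39-08, and without that library the highest was 0.511%. In the DMSO groups the shares overlapped, at 0.340 to 0.394% in DMSO siSF3B1 and 0.356 to 0.425% in DMSO siRBM39. The 2 highest DMSO siRBM39 libraries, replicates 1 and 3 of siRBM39-06, also stood apart from their group. Every comparison of genes takes its spread from all 48 libraries, so the counts of members called are also given without these 3.

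**Figure D1:**
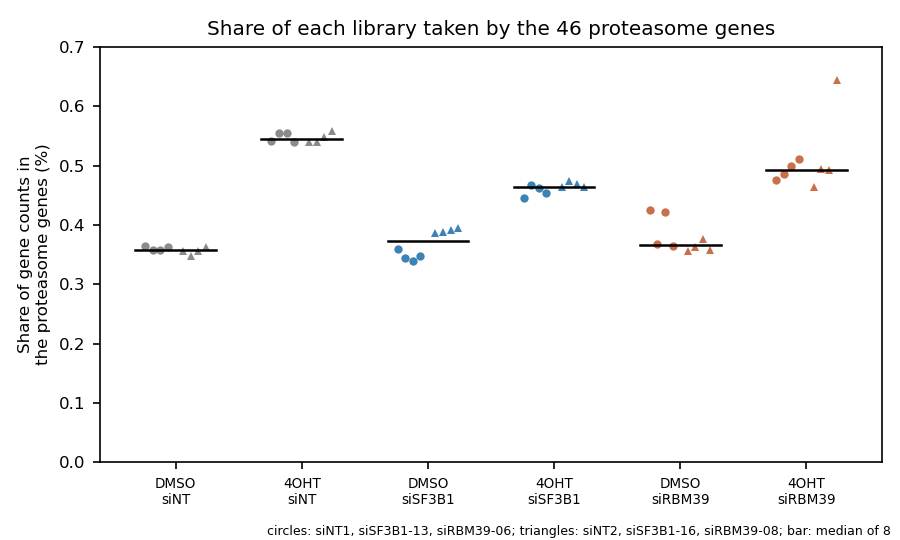
Share of all counts (percent, y axis) in the 46 proteasome subunit genes for each of the 48 libraries by group (x axis), with circles for the first and triangles for the second siRNA of a target and a bar at the group median. The 4OHT siNT libraries lie at 0.540 to 0.558%, above every DMSO siNT library (0.347 to 0.364%), and 1 library of 4OHT siRBM39 stands at 0.645%.

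Within DMSO siNT the subunits differed in level per length of mappable sequence (cRPKM, the authors' RPKM corrected for mappability). The ring subunit PSMB4 was highest at 154 cRPKM ± 4.10 (SD, n = 8), followed by PSMA7 at 124 and PSMB1 at 103. The order ended with the immunoproteasome subunit PSMB10 at 12.9 cRPKM, the assembly chaperone PSMG1 at 9.69, PSMB9 at 7.83, and the chaperones PSMG3 at 7.42 and PSMG4 at 5.77. Neighbours such as PSMB7 (82.6 to 92.1 cRPKM) and PSMB5 (78.6 to 91.4 cRPKM) overlapped between libraries. Of the 46 members, 44 passed the filter of 10000 counts in total that set the 9991 genes tested. PSMB9 and PSMG4 did not, and their tests came from a fit over genes with at least 1000 counts.

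4OHT against DMSO in siNT cells compares cells with the RAS fusion switched on and off. Without vector cells, 4OHT itself and the RAS it switches on cannot be told apart here. Of the 44 tested members, 35 rose at an adjusted p under 0.05, where 39% of all genes tested rose. PSMG2, an assembly chaperone of the core, was the 1 that fell, where 39.1% of all genes fell. The median log2 fold change of the members was 0.40. Over all 9991 genes the median lay between −0.03 and 0.05 in each of the comparisons reported here. In 32 members every 4OHT siNT library lay above every DMSO siNT library, against 34.9% of all genes. Without the 3 siRBM39 libraries named above 36 members rose and 2 fell, where 4233 and 4225 of the 9991 genes did.

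The rise ran through both particles. All 7 alpha subunits rose, with a median log2 fold change of 0.55, as did 6 of 7 constitutive beta subunits, with a median of 0.39. In the regulatory particle, all 11 non-ATPase subunits rose (median 0.69), and 5 of the 6 ATPases did (median 0.40). PSMC3 was the ATPase that did not pass, at a log2 fold change of 0.16 (adjusted p = 0.233). Its level was 58.4 to 69.6 cRPKM in DMSO siNT and 69.9 to 75.2 cRPKM in 4OHT siNT, without overlap. The test takes its spread from all 6 groups, and PSMC3 was at 61.3 to 168 cRPKM in 4OHT siRBM39. Of the 4 activator genes, 3 rose. The 3 chaperones of the regulatory base that carry PSMD symbols (PSMD5, PSMD9 and PSMD10) gave 1 rise, PSMD9 at 0.53, and among the 3 tested core chaperones PSMG1 rose by 0.23 while PSMG2 fell.

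PSMD2, which with PSMD1 is the scaffold of the regulatory base, changed most. It was at 266, 273 and 282 CPM (lowest, median and highest library) in DMSO siNT and at 763, 792 and 818 CPM in 4OHT siNT, a 2.89-fold rise (log2 fold change 1.53 ± 0.06 SE, adjusted p = 1.7e-27). The groups lay far apart and did not overlap. PSMC4, an ATPase of the base, went from 69.0, 73.7 and 78 CPM to 152, 159 and 163 CPM (log2 fold change 1.10 ± 0.05, adjusted p = 2.3e-25). PSMD14, the deubiquitinase of the lid, went from 55.5, 58.6 and 62.7 CPM to 118, 125 and 128 CPM (1.09 ± 0.03, adjusted p = 8.9e-32). These 3 were the only tested members over 2-fold. The alpha subunit PSMA6 rose by 0.93 ± 0.05, from 68.0 to 74.3 CPM in DMSO siNT to 131 to 141 CPM in 4OHT siNT. PSME4, which encodes the activator PA200, rose by 0.91 ± 0.07, from 99 to 124 CPM to 190 to 219 CPM. PSMG2 fell by 0.35 on the log2 scale (SE 0.04, adjusted p = 1.3e-11), from 28.3, 29.5 and 31.4 CPM to 22.1, 23.2 and 24.4 CPM, again with no overlap.

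The catalytic subunits and their immunoproteasome counterparts moved differently from each other. Among the constitutive catalytic subunits, PSMB5 rose by 0.73 ± 0.12 and PSMB7 by 0.65 ± 0.09, while PSMB6 was at 53.7 to 58.9 CPM in DMSO siNT and at 52.6 to 60.5 CPM in 4OHT siNT (−0.00 ± 0.09, adjusted p = 0.984). Of the immunoproteasome subunits, PSMB8 was at 22.7, 23.8 and 25.5 CPM in DMSO siNT and 19, 20.9 and 24.2 CPM in 4OHT siNT, groups that overlap (−0.18 ± 0.09, adjusted p = 0.0834). PSMB10 was at 12.4 to 17 and 14.3 to 18.5 CPM (0.11 ± 0.16, adjusted p = 0.506). PSMB9 fell from 5.12, 5.69 and 6.17 CPM to 2.58, 2.73 and 3.07 CPM, without overlap (−0.98 ± 0.15, adjusted p = 1.1e-07, fit over genes with at least 1000 counts). The activator pair split, with PSME2 rising by 0.71 ± 0.10 and PSME1 at 50.2 to 58.5 and 51.5 to 58.6 CPM (0.02 ± 0.08, adjusted p = 0.789).

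**Figure D2:**
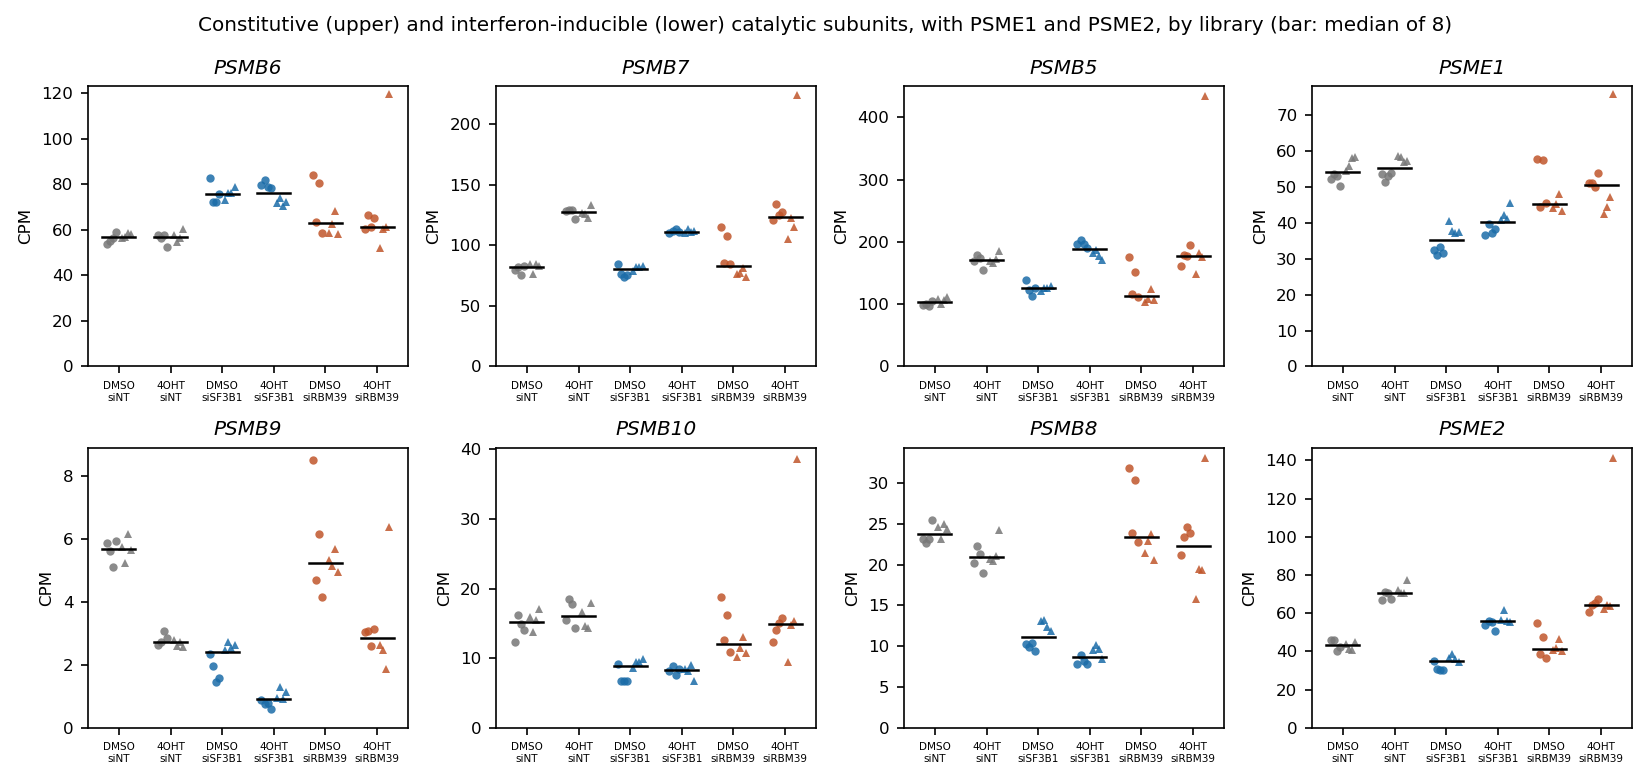
Level (CPM, y axes on scales of their own) in each library by group for the constitutive catalytic subunits PSMB6, PSMB7 and PSMB5 and the activator PSME1 (upper row) and for PSMB9, PSMB10, PSMB8 and the activator PSME2 (lower row), with bars at the group median. PSMB8 is at 7.80 to 10.2 CPM in 4OHT siSF3B1 against 19 to 24.2 CPM in 4OHT siNT, and replicate 4 of siRBM39-08 in 4OHT gives the highest PSMB5 (434 CPM).

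Because the members moved together with 4OHT, their promoters were examined. RefSeq (GRCh38.p14) gave 40 of the 46 members a promoter of 300 bases, from 250 before to 50 after the start. Those not matched were PSMA7, PSMB1, PSMB6, PSMB7, PSMD4 and PSMG3. The antioxidant response element core TGACNNNGC, searched on both strands, the kind of site that NRF1 and NFE2L2 bind with small MAF proteins, was present in 15 of 40 (37.5%), against 13.3% of 35116 promoters. CCAAT was present in 19 (47.5% against 34.6%), the ETS core CCGGAAG in 14 (35% against 10.3%) and TGACGTCA in 0 (against 1.85%). The 35116 promoters outnumber the 19509 genes counted and were not limited to the 9991 genes tested. The shares among promoters of genes expressed in these cells were not taken, so these differences cannot be called particular to the members. Of the 14 tested members with TGACNNNGC, 11 rose and 1 fell with 4OHT, with a median log2 fold change of 0.54, and of the 24 tested members whose promoter lacked it 20 rose and 0 fell, with a median of 0.37. Of the 13 tested members with CCGGAAG, 13 rose, with a median of 0.53, and of the 25 without it 18 rose and 1 fell, with a median of 0.42. Of the 18 with CCAAT, 16 rose and 0 fell, with a median of 0.49, and of the 20 without it 15 rose and 1 fell, with a median of 0.41. PSMD2 was among the genes without a TGACNNNGC match. A match is a run of letters and not a site shown to be bound. The promoters of the 3 members with such a match that rose most are shown, written along the strand of the gene with the match in capitals. They lie at chr19:39970915-39971214 (plus strand), chr2:53970944-53971243 (minus strand) and chr17:67366528-67366827 (minus strand).
PSMC4: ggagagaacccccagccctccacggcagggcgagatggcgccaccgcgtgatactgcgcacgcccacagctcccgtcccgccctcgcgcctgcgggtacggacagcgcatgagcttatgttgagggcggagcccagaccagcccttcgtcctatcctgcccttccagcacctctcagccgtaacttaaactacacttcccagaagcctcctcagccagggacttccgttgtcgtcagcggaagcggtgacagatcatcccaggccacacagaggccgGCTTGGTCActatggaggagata
PSME4: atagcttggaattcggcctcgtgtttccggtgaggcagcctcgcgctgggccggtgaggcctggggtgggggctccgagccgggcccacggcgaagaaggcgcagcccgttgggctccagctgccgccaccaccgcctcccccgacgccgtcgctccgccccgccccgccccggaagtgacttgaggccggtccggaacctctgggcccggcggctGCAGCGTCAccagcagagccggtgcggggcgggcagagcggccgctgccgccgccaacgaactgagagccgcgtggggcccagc
PSMD12: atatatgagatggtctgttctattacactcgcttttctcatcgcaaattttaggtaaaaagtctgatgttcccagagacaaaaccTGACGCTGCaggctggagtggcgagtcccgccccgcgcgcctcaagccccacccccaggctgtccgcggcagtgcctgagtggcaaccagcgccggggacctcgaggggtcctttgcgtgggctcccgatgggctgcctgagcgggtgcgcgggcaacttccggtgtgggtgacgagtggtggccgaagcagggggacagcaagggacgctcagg

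Knockdown of SF3B1 moved the subunits in both directions. In DMSO, 20 of 44 members rose, where 36.5% of all genes rose, and 16 fell, where 36.2% fell, with a median log2 fold change of 0.07. In 4OHT, 10 rose, where 39.4% of all genes did, and 23 fell, where 37.6% did, with a median of −0.17. The knockdown comparisons of each treatment share their siNT libraries with each other and with the 4OHT comparison of siNT cells. Libraries did not overlap in 16 of the members that rose and 16 of those that fell in DMSO (26.4% and 27.9% of all genes), and in 9 and 22 in 4OHT (34.3% and 32.9%). Without the 3 siRBM39 libraries 22 members rose and 18 fell in DMSO, where 4090 and 3976 of the 9991 genes did. In 4OHT 13 rose and 25 fell without them, where 4329 and 4038 of the 9991 genes did. Each SF3B1 siRNA, tested alone, called 15 members up and 14 down in common in DMSO, and 9 and 21 in 4OHT. The share of all genes called in common was not taken, so these counts have no background beside them. PSMA4 was called in opposite directions by the 2 siRNAs in DMSO, −0.21 with siSF3B1-13 and 0.15 with siSF3B1-16.

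The immunoproteasome subunits and the activators fell in both treatments. With siSF3B1, PSMB8 was at 9.45, 11.1 and 13.2 CPM in DMSO and at 7.80, 8.68 and 10.2 CPM in 4OHT, below each siNT library of the same treatment. It fell by 1.08 ± 0.10 on the log2 scale in the DMSO groups (adjusted p = 8.4e-14) and by 1.26 ± 0.10 in the 4OHT groups (adjusted p = 6.5e-16). PSMB10 fell by 0.84 and 0.98 on the log2 scale, and PSMB9 by 1.33 and 1.58, to 0.594 to 1.31 CPM in 4OHT siSF3B1. All 4 activator genes fell in each treatment, PSME1 by 0.63 and 0.46 and PSME2 by 0.35 and 0.35. PSME4 was at 64.1, 70.0 and 78.8 CPM in DMSO siSF3B1 (−0.59 ± 0.07, adjusted p = 3e-10) and at 62.1, 73.6 and 87.4 CPM in 4OHT siSF3B1 (−1.45 ± 0.07, adjusted p = 4.5e-23). In both treatments these libraries lay below all siNT libraries, and the 4OHT siNT level of 190 to 219 CPM was not seen in any 4OHT siSF3B1 library. PSMF1, which encodes the inhibitor PI31, fell by 0.15 and 0.25.

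Chaperones and regulatory subunits went both ways. PSMD5, a chaperone of the base, was at 71.6, 74.6 and 80.5 CPM in DMSO siNT and 37.5, 42.1 and 43.9 CPM in DMSO siSF3B1 (−0.85 ± 0.07, adjusted p = 3.6e-15), and at 73.1, 77.8 and 80.8 against 33.4, 35 and 36.3 CPM in 4OHT (−1.14 ± 0.07, adjusted p = 1.1e-19). PSMD10, another chaperone of the base (gankyrin), rose by 0.64 ± 0.06 and 0.79 ± 0.06, from 44.8 to 50.4 CPM in DMSO siNT to 66.0 to 78.3 CPM in DMSO siSF3B1. Neither pair of groups overlapped. PSMD12, a lid subunit, rose by 0.79 ± 0.06 in DMSO and 0.38 ± 0.06 in 4OHT. Among the core chaperones, PSMG2 rose by 0.30 and 0.41 and PSMG3 by 0.42 and 0.45, while PSMG1 fell by 0.37 and 0.82. PSMG4, singled out after its values were seen, was at 2.63, 3.28 and 4.30 CPM in DMSO siNT and 0.448, 0.713 and 1.02 CPM in DMSO siSF3B1 (−2.12 ± 0.17), and its log2 fold change in 4OHT was −2.44 ± 0.16, with no overlap in either.

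In the core rings, 8 of the 14 constitutive subunits rose and 2 fell in DMSO siSF3B1, where 36.5% and 36.2% of all genes did. In 4OHT siSF3B1 4 rose and 5 fell, where 39.4% and 37.6% of all genes did, with a median of −0.003. PSMA5 fell most, by 0.41 in DMSO and 0.71 in 4OHT. PSMB1, PSMA2 and PSMB2 rose by 0.52, 0.52 and 0.50 in DMSO siSF3B1 and by 0.29, 0.37 and 0.37 in 4OHT siSF3B1. PSMB6 rose by 0.42 in each treatment, from 53.7 to 58.9 CPM in DMSO siNT to 72.0 to 82.7 CPM, and from 52.6 to 60.5 CPM in 4OHT siNT to 70.4 to 81.7 CPM. PSMB5 rose by 0.28 ± 0.12 in DMSO (adjusted p = 0.0415), while its 4OHT value was 0.13 ± 0.12 (adjusted p = 0.335), and PSMB7 gave −0.02 ± 0.09 (adjusted p = 0.812) and −0.19 ± 0.09 (adjusted p = 0.0490). PSMD2 was at 276, 290 and 312 CPM in DMSO siSF3B1 (0.09 ± 0.06, adjusted p = 0.176) and fell by 0.23 in 4OHT, to 650, 671 and 703 CPM. These 4OHT siSF3B1 libraries lay below every 4OHT siNT library and above every DMSO library.

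**Figure D3:**
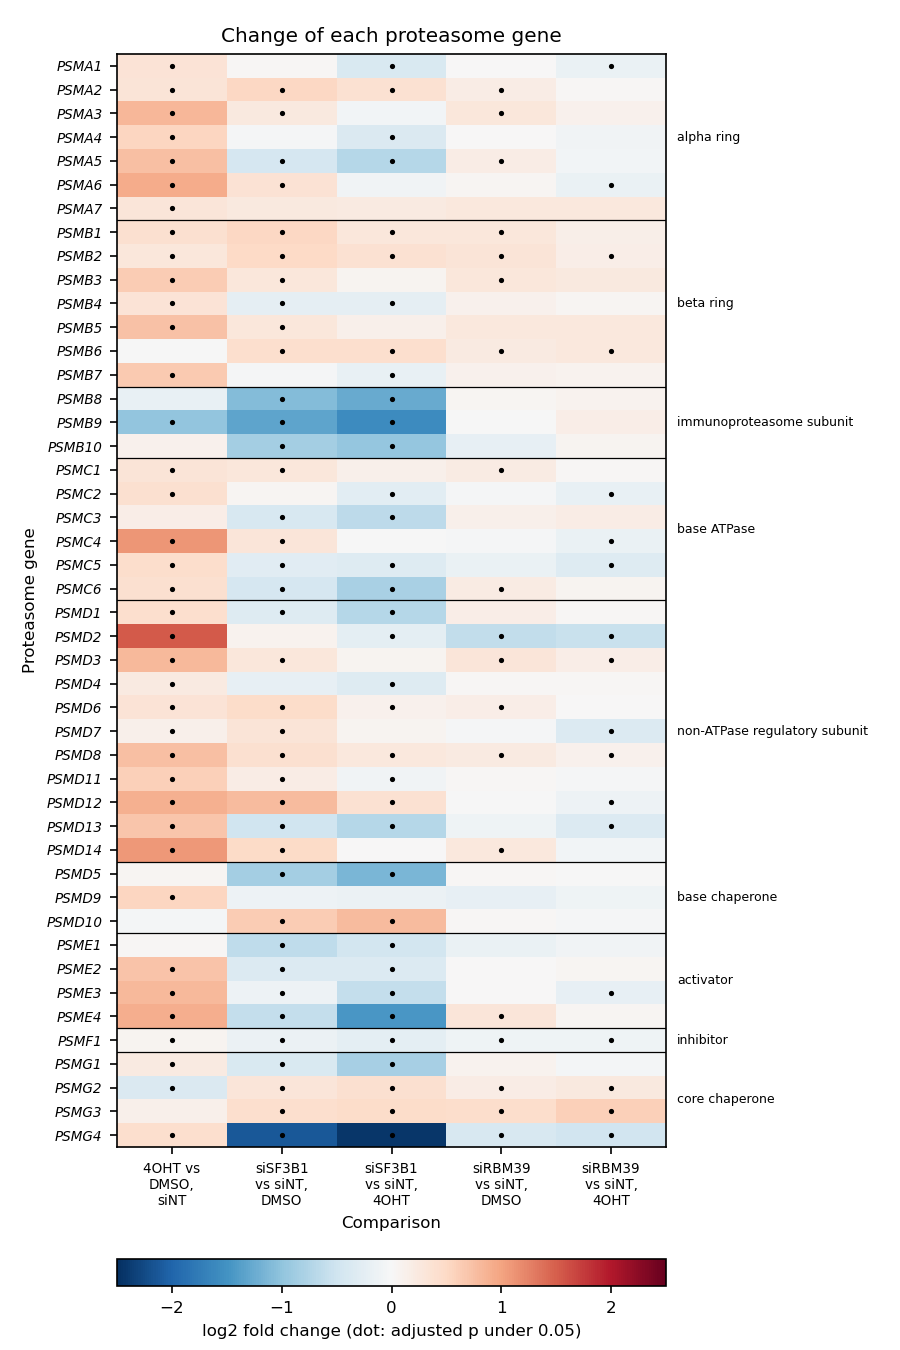
Log2 fold change (colour, from −2.5 to 2.5) of the 46 proteasome subunit genes (rows, grouped by role) in the 4OHT comparison of siNT cells and in each knockdown against siNT in DMSO and 4OHT (columns), with dots at an adjusted p under 0.05. Most rows are positive with 4OHT (35 of 44 tested members rose), and PSMG4, PSMB9, PSMB8 and PSME4 are the most negative in 4OHT siSF3B1 (−2.44, −1.58, −1.26 and −1.45).

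The SF3B1 effect differed between treatments in 21 of 44 members by the interaction test, all 21 with a lower log2 fold change in 4OHT than in DMSO, where 19.9% of all genes were lower. None was higher, where 17.9% of all genes were. The median interaction was −0.22. By role these were 5 of 7 alpha subunits, 3 of 6 ATPases, 8 of 11 non-ATPase subunits and 0 of 7 constitutive beta subunits. The largest differences were those of PSME4 (−0.85 ± 0.10, adjusted p = 1.9e-09), PSMD14 (−0.47 ± 0.05), PSME3 (−0.46 ± 0.06), PSMG1 (−0.45 ± 0.08) and PSMA6 (−0.45 ± 0.07). PSMD14 is 1 form of this: it was at 55.5 to 62.7 CPM in DMSO siNT and 77.5 to 86.2 CPM in DMSO siSF3B1, but at 118 to 128 CPM in 4OHT siNT and 119 to 133 CPM in 4OHT siSF3B1. In DMSO its groups did not overlap, and in 4OHT they did. PSME4 (−0.59 in DMSO and −1.45 in 4OHT), PSMG1 (−0.37 and −0.82) and PSME3 instead fell in both treatments, and by more in 4OHT. Leaving out the 3 siRBM39 libraries that stood apart raised the count to 32, of which 30 were lower. Over all 9991 genes 2767 were then lower and 2531 higher, against 1988 and 1793 with all libraries.

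Knockdown of RBM39 moved fewer members. In DMSO 16 rose, where 23.9% of all genes rose, and 2 fell, where 22.2% fell, with a median log2 fold change of 0.10. In 4OHT 6 rose, where 32.2% did, and 11 fell, where 24.3% did, with a median of 0.02. The libraries did not overlap in 7 members that rose and 2 that fell in DMSO (8.58% and 11.7% of all genes), and in 1 and 5 in 4OHT (11.4% and 13.6%). Without the 3 libraries named above 17 rose and 9 fell in DMSO, where 29.3% and 25.9% of all genes did. In 4OHT 6 rose and 18 fell without them, where 35.7% and 29.3% of all genes did, and the median became −0.06. The 2 siRNAs called 10 members up and 2 down in common in DMSO, with PSMD12 in opposite directions, and 3 and 7 in 4OHT. Here too the share of all genes called in common was not taken.

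PSMD2, the tested member that rose most with 4OHT, was the one that fell most with siRBM39. It was at 153, 173 and 220 CPM in DMSO siRBM39 against 266, 273 and 282 CPM in DMSO siNT (−0.62 ± 0.06, adjusted p = 2.3e-12), and at 468, 518 and 747 CPM in 4OHT siRBM39 against 763, 792 and 818 CPM in 4OHT siNT (−0.55 ± 0.06, adjusted p = 5.5e-11). No siRBM39 library reached the lowest siNT library of its treatment, although the library at 747 CPM, replicate 4 of siRBM39-08, came close. Both siRNAs called it, at −0.50 with siRBM39-06 and −0.76 with siRBM39-08 in DMSO, and at −0.60 and −0.50 in 4OHT. The difference in effect between treatments did not pass the interaction test (0.07 ± 0.08, adjusted p = 0.641).

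Most other members changed less than PSMD2 with siRBM39. PSMG3 rose by 0.43 and 0.60, with groups that overlapped. In DMSO siRBM39-06 alone gave 0.73 and siRBM39-08 alone 0.05 (adjusted p = 0.84), and in 4OHT they gave 0.40 (adjusted p = 0.0595) and 0.77. The values of 0.60 and 0.77 include replicate 4 of siRBM39-08, which stood apart from its group at 38.8 CPM. PSMG4 fell by 0.41 and 0.48. In DMSO the ring subunits PSMB2 (0.32 ± 0.04) and PSMB1 (0.29 ± 0.09) and the regulatory subunits PSMD3 (0.31 ± 0.06), PSMD14 (0.26 ± 0.03) and PSMD8 (0.23 ± 0.05) rose, and the inhibitor PSMF1 fell by 0.10. In 4OHT the chaperone PSMG2 rose by 0.25 ± 0.04, and PSMD7 (−0.34 ± 0.04), the activator PSME3 (−0.21 ± 0.04), PSMC2 (−0.18 ± 0.04) and PSMA6 (−0.16 ± 0.05) fell. PSMD7, the inactive partner of PSMD14 in the lid, was at 93.7, 95.8 and 101 CPM in 4OHT siNT and 71.2, 75.8 and 87.1 CPM in 4OHT siRBM39, without overlap. Of the catalytic subunits, PSMB6 rose in both treatments, by 0.23 ± 0.09 in DMSO (adjusted p = 0.0338) and, with 4OHT, by 0.27 ± 0.09 (adjusted p = 0.0126). In DMSO its value was 0.12 without the 3 libraries (adjusted p = 0.0179), and siRBM39-06 alone gave 0.34 and siRBM39-08 alone 0.13 (adjusted p = 0.364). Without replicate 4 of siRBM39-08, PSMB6 in 4OHT was at 0.10 (adjusted p = 0.117), and without the 3 libraries at 0.10 (adjusted p = 0.0261). PSMB5 (0.27 and 0.27), PSMB7 (0.11 and 0.08), PSMB8 (0.05 and 0.09), PSMB9 (−0.01 and 0.16), PSMB10 (−0.20 and 0.06), PSME1 (−0.17 and −0.09) and PSME2 (0.00 and 0.06) did not pass in DMSO or in 4OHT. Without the 3 libraries PSME1 passed in both treatments (−0.27 and −0.19), as did PSMB10 (−0.38 and −0.23), and PSME2 passed in 4OHT (−0.14).

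The RBM39 effect was lower in 4OHT than in DMSO in 8 of 44 members (6.87% of all genes) and higher in 0 (7.28% of all genes), with a median interaction of −0.11. The 5 with the largest difference were PSMD14 (−0.33 ± 0.05), PSMD7 (−0.31 ± 0.05), PSMA5 (−0.24 ± 0.08), PSME3 (−0.22 ± 0.06) and PSMA6 (−0.21 ± 0.07). The count depends on the libraries used, being 18 without replicate 4 of siRBM39-08 in 4OHT and 16 without the 3 libraries. Over all 9991 genes 1190 and 1178 were lower in these settings, against 686 with all libraries.

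Set directly against each other, the knockdowns differed in 29 members in DMSO and 31 in 4OHT. In DMSO 14 were higher with siSF3B1 than with siRBM39 (33.6% of all genes) and 15 lower (34.1%). In 4OHT 11 were higher (33.7%) and 20 lower (37.7%). Without the 3 siRBM39 libraries 20 were higher and 15 lower in DMSO (38.1% and 37.3% of all genes), and 18 and 21 in 4OHT (39.5% and 39.3%). Without replicate 4 of siRBM39-08 alone, 17 were higher and 20 lower in 4OHT, where 3800 and 3809 of the 9991 genes were. PSMB8 (−1.13 in DMSO and −1.35 in 4OHT), PSME4 (−0.89 and −1.49), PSMD5 (−0.87 and −1.14), PSMB10 (−0.64 and −1.04) and PSMC6 (−0.62 and −0.88) were lower with siSF3B1 in both. PSMD12 (0.80 and 0.51), PSMD10 (0.62 and 0.82) and PSMD7 (0.35 and 0.40) were higher in both, and PSMD2 (0.71) and PSMA2 (0.34) were among the 5 largest in DMSO. PSME1 (−0.46 and −0.37) and PSME2 (−0.35 and −0.40) were lower with siSF3B1 in both, as was PSMB9 (−1.31 and −1.74). PSMB5 gave 0.01 and −0.14, PSMB6 gave 0.18 and 0.15, and PSMB7 gave −0.14 in DMSO, none of which passed, and −0.27 in 4OHT, which did (adjusted p = 0.00647). Without the 3 siRBM39 libraries PSMB6 passed in both treatments, at 0.30 and 0.32. Without replicate 4 of siRBM39-08, PSMB7 in 4OHT was at −0.12 and did not pass, and PSME2 was at −0.20.

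The splicing of the members was measured as percent spliced-in (PSI), the share of transcripts that include an exon or retain an intron. Of 337 exons and 341 introns of members in the event table, 47 exons in 24 genes and 41 introns in 24 genes passed the filters on coverage, range and balance. A call needed both an adjusted p under 0.05 and group means that lay 5 or more PSI points apart. Nearly all were constitutive in control cells: 46 of the 47 exons had a mean PSI over 90 and all 41 introns one under 10 in DMSO siNT. With 4OHT in siNT cells, 0 exons and 0 introns were called by limma (3 and 1 at an unadjusted p under 0.05), where 0.404% of all exons rose and 1.02% fell and 0.0572% of all introns rose and 0.114% fell.

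Knockdown of SF3B1 led to skipping of proteasome exons. In DMSO 18 of 47 exons in 11 genes fell in PSI, where 25.7% of all exons fell, and 0 rose, where 1.04% did. In 4OHT 26 exons in 13 genes fell, where 29% did, and 0 rose, where 1.03% did. Of these, 17 were called in both treatments. Among the 47, 44 in DMSO and 45 in 4OHT had a lower mean PSI, with medians of −3.88 and −5.69 points beside −1.84 and −2.20 over all exons. These exons were kept because their PSI spanned 5 points or more over the libraries, a range that a change with siSF3B1 itself widens. With no such filter, 18 of 206 member exons fell in DMSO, where 7.76% of all exons did, and 26 of 206 in 4OHT, where 8.72% did. The medians over the 206 were −0.045 and −0.097 points, beside 0 over all exons. Of the called exons, 8 of 18 and 10 of 26 had a length that is a multiple of 3, as 21 of the 47 tested did, and 17 and 25 lay wholly in coding sequence. The SF3B1 effect on PSI did not pass the interaction test for any member exon (0 by limma, 4 at an unadjusted p under 0.05), where 0.469% of all exons were lower in 4OHT and 0.0391% higher. Introns gave 0 (2 at an unadjusted p under 0.05), where 0.114% of all introns were higher and 0% lower.

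The exons that were skipped most are shown in lower case with capitals at the first 2 and last 3 bases, the ends that abut the splice sites, with the GRCh38 positions that the event table carries and the bases from GENCODE transcripts. They are exon 16 of 25 of PSMD1 (chr2:231087117-231087181, plus strand), exons 5 and 3 of 9 of PSMA4 (chr15:78544190-78544267 and chr15:78542177-78542219, plus strand) and exon 5 of 12 of PSMD14 (chr2:161367784-161367903, plus strand), all of them wholly coding. The exons of 78 and 120 nt keep the reading frame when skipped, and those of 65 and 43 nt do not.
PSMD1 exon of 65 nt: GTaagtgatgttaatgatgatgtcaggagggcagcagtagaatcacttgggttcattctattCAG
PSMA4 exon of 78 nt: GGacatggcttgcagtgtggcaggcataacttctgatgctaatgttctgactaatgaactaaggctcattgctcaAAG
PSMA4 exon of 43 nt: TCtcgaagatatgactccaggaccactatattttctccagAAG
PSMD14 exon of 120 nt: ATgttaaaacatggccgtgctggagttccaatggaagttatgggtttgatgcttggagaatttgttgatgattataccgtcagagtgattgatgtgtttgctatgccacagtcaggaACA

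The exon of 65 nt of PSMD1, the scaffold that pairs with PSMD2, was at a PSI of 94.6, 100 and 100 (lowest, median and highest) in DMSO siNT and at 49.9, 61.6 and 69.7 in DMSO siSF3B1, a difference in means of −38.5 points (adjusted p = 2.7e-18). In 4OHT siNT all 8 libraries were at 100, and in 4OHT siSF3B1 they were at 43.7, 58.0 and 68.8, a difference of −42.8 points (adjusted p = 6.1e-20). The groups did not overlap in either treatment, and 34 to 102 reads per library carried these values. The exact permutation p (two-sided) was 0.000155, the smallest that 8 against 8 libraries allow, for both. Mean PSI with siSF3B1-13 was 54.5 (DMSO) and 52.4 (4OHT), and with siSF3B1-16 67.2 and 61.9. In siRBM39 the lowest library was at 93.7.

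PSMA4, an alpha subunit, lost both of the exons shown. The exon of 78 nt was at 92.6, 100 and 100 in DMSO siNT and 48.4, 64.8 and 72.3 in DMSO siSF3B1 (−35.0 points, adjusted p = 1.9e-10, exact permutation p = 0.000155). In 4OHT it was at 91.2, 100 and 100 against 43.3, 53.3 and 61.2 (−45.7 points, adjusted p = 4e-12, exact permutation p = 0.000155). The exon of 43 nt was at 100 in all siNT libraries. With siSF3B1 it was at 59.4, 77.0 and 88.2 in DMSO (−25.3 points) and at 63.8, 78.9 and 88.4 in 4OHT (−22.6 points). No siSF3B1 library reached a siNT library for either exon. In 4OHT siRBM39 the exon of 78 nt was at 83.6, 93.1 and 97.6 (−4.91 points, adjusted p = 0.0146), which is under the 5 points set for a call.

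The exon of 120 nt of PSMD14 was at 98.3, 100 and 100 in DMSO siNT and 68.5, 76.8 and 83.2 in DMSO siSF3B1 (−23.5 points, adjusted p = 1.1e-26), and in 4OHT all siNT libraries were at 100 and siSF3B1 libraries at 63.1, 70.5 and 73.0 (−31.0 points, adjusted p = 3.2e-29). All 16 siRBM39 libraries were at 100. Further skipped exons, named after their values were seen, were the exon of 36 nt of the lid subunit PSMD11 (mean PSI 100 in control DMSO cells, 76.3 after siSF3B1 in DMSO and 69.5 after it in 4OHT), the exon of 52 nt of PSMD14 (79.1 and 71.8 in siSF3B1) and the exon of 127 nt of the ATPase PSMC5 (83.2 and 81.1 in siSF3B1). PSMD1 alone had 5 tested exons, all 5 of them called in 4OHT siSF3B1, and the exons of PSMD1 at 93 and 87 nt went from 99.9 and 99.9 in 4OHT siNT to 80.2 and 86.5.

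**Figure D4:**
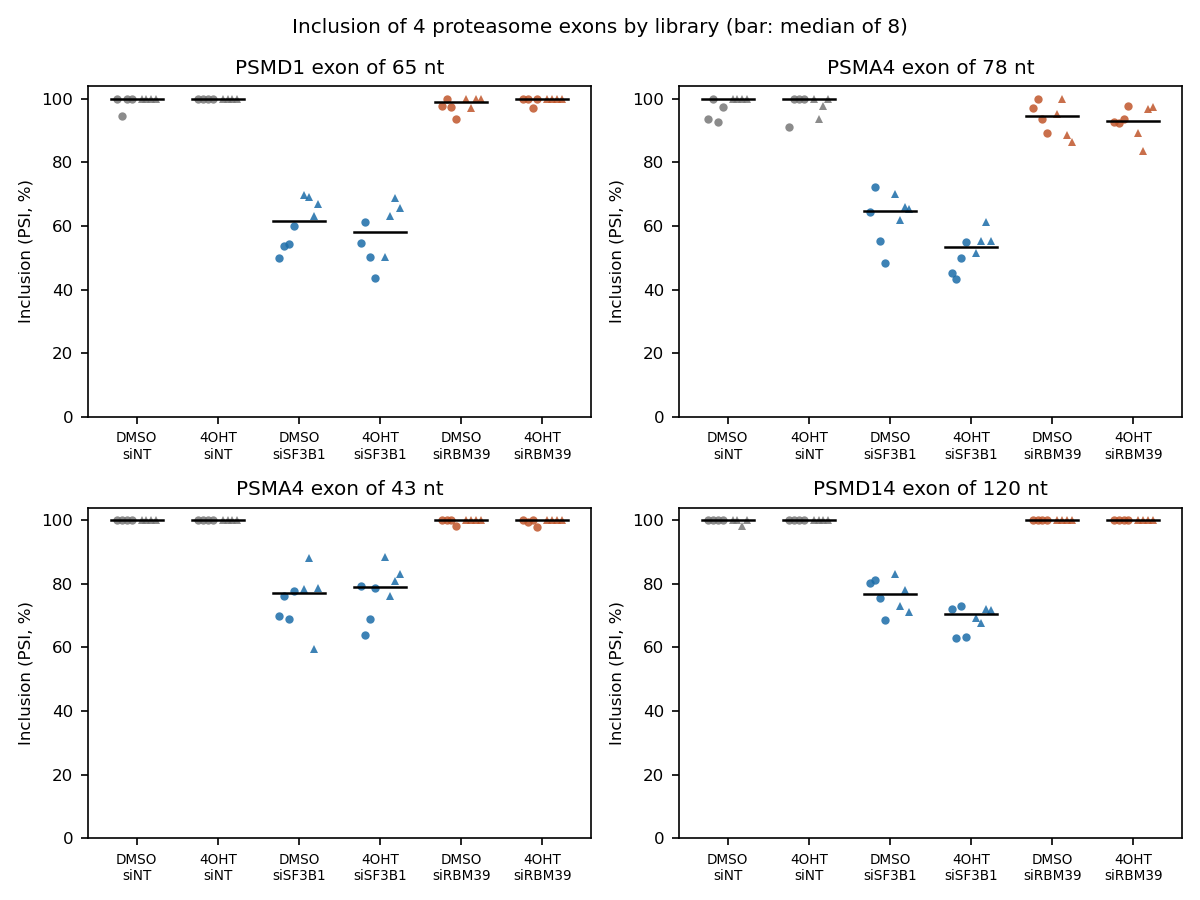
PSI (percent, y axis) in each library by group for the PSMD1 exon of 65 nt, the PSMA4 exons of 78 and 43 nt and the PSMD14 exon of 120 nt, with bars at the group median. The siSF3B1 libraries lie below all siNT libraries of the same treatment in each panel, for PSMD1 at 43.7 to 68.8 against 100 in 4OHT.

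Skipping and gene level could be set side by side. In DMSO siSF3B1, of the 11 genes with a called exon 3 rose and 7 fell, with a median log2 fold change of −0.15, and of the 33 tested members without one 17 rose and 9 fell, with a median of 0.25. In 4OHT siSF3B1, of 13 genes with a called exon 1 rose and 8 fell (median −0.33), and of 31 without one 9 rose and 15 fell (median −0.09). Of all genes tested 36.5% rose and 36.2% fell in DMSO siSF3B1, and 39.4% and 37.6% in 4OHT siSF3B1. PSMD1 fell by 0.32 and 0.72 in the 2 treatments and PSMA5 by 0.41 and 0.71, while PSMD14 rose by 0.48 in DMSO and was at 0.01 in 4OHT, and PSMA4 was at −0.02 in DMSO and fell by 0.35 in 4OHT. Only 24 member genes had an exon that passed the filters, so most genes without a called exon had none that could be called. Among these were PSMB8 and PSMB10, and the same was so for PSMB9 and PSMG4, which are outside the 44. The comparison thus sets skipped genes mainly against genes whose exons were not measured, and a link between skipping and level was not tested.

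With siRBM39 the exon of 178 nt of PSMB3, a ring subunit, was the 1 exon called in DMSO, where 7.01% of all exons fell and 1.02% rose, and 2 were called in 4OHT, where 8.05% fell and 1.13% rose. The PSMB3 exon (chr17:38760431-38760608) was at 94.1, 97.1 and 99.2 in DMSO siNT and 86.7, 89.4 and 93.1 in DMSO siRBM39, without overlap (−6.91 points, adjusted p = 7.2e-06, exact permutation p = 0.000155). In 4OHT it was at 90.1, 95.2 and 97.1 against 83.6, 87.4 and 91.3, which overlapped (−7.00 points, adjusted p = 0.000269, exact permutation p = 0.000466). With siSF3B1 it fell by 8.02 points in DMSO and by 6.10 in 4OHT. The other exon called in 4OHT was an exon of 63 nt of PSMD6 (chr3:64022739-64022801, minus strand) that is not in the canonical transcript and was rarely included. It was at 4.93, 6.5 and 8.53 in 4OHT siNT, at 0.00, 1.48 and 3.66 in 4OHT siRBM39 and at 0.00, 1.35 and 2.86 in 4OHT siSF3B1. It fell by 5.34 points with siRBM39 and by 5.38 with siSF3B1 in 4OHT, and DMSO siNT libraries were at 1.85, 3.56 and 5.2.

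Introns of members were retained little. With siSF3B1, 0 of 41 introns were called in DMSO or in 4OHT by limma, where 10.8% and 14.7% of all introns rose and 0.343% and 0.21% fell, although 19 and 23 had an unadjusted p under 0.05 and 36 and 35 had a higher mean PSI. By adjusted p alone, 18 introns were higher in DMSO, and 20 were higher and 1 lower in 4OHT. The largest increases among the 41 were 4.62 and 4.89 points, under the minimum of 5 that a call also needed. With siRBM39, 2 introns rose in DMSO and 1 in 4OHT, where 2.02% of all introns rose in each and 0.152% fell. They were introns of PSMD2 and PSME3 in DMSO and the same intron of PSMD2 in 4OHT. The interaction test of the siRBM39 effect called 0 exons and 0 introns by limma (3 and 2 at an unadjusted p under 0.05), where 0.013% of all exons were higher and 0.0261% lower and 0% of all introns were called.

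The intron of PSMD2 is intron 10 of a transcript of 21 exons and has 197 nt (chr3:184303750-184303946, plus strand, GRCh38). Its PSI was 1.00, 2.35 and 5.49 in DMSO siNT and 6.95, 14.6 and 23.4 in DMSO siRBM39, a difference of 11.4 points (adjusted p = 5e-07, exact permutation p = 0.000155). In 4OHT it was 0.40, 1.48 and 2.27 against 3.57, 6.54 and 10.5, a difference of 5.88 points (adjusted p = 6.6e-06, exact permutation p = 0.000155). The siRBM39 libraries lay above every siNT library in both treatments, with both siRNAs (means of 15 and 13.9 in DMSO, and 5.39 and 9.06 in 4OHT). Between 52.3 and 337 reads per library carried these values in the 4 groups. In 4OHT siSF3B1 the intron was at 2.48, 4.56 and 6.01, above the 4OHT siNT libraries but by 3.04 points, under the limit set for a call. The retention is given beside the fall of PSMD2 in siRBM39, and its part in that fall was not tested. The intron of PSME3 of 395 nt (chr17:42837698-42838092, plus strand) was at 0.00, 0.00 and 4.92 in DMSO siNT and 1.33, 4.31 and 17.5 in DMSO siRBM39, groups that overlap (5.15 points, adjusted p = 0.0112, exact permutation p = 0.0284) and that rest on 20 to 50 reads per library. Its mean in DMSO was 3.00 with siRBM39-06 and 10.5 with siRBM39-08, against 2.23 with siNT1 and 1.00 with siNT2, so the change came mainly from siRBM39-08.

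**Figure D5:**
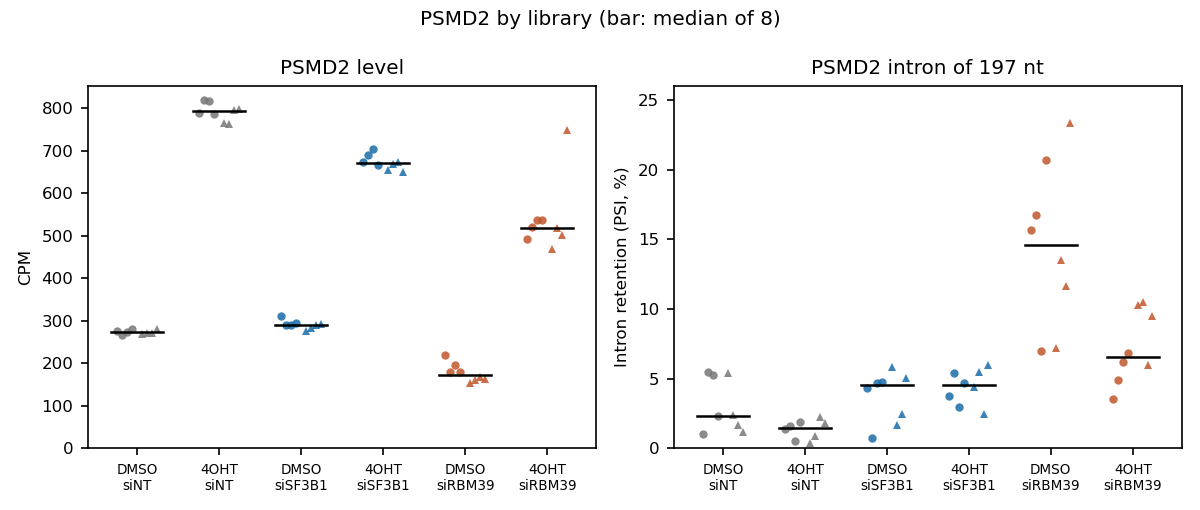
Level of PSMD2 (CPM, y axis of the left panel) and PSI of its intron of 197 nt (percent, y axis of the right panel) in each library by group, with bars at the group median. PSMD2 is at 763 to 818 CPM in 4OHT siNT and 468 to 747 CPM in 4OHT siRBM39, and the intron is at 6.95 to 23.4% in DMSO siRBM39 against 1.00 to 5.49% in DMSO siNT.

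Genes around the proteasome were described from lists. Of all genes tested, 39% rose and 39.1% fell with 4OHT. The shares were 36.5% and 36.2% with siSF3B1 in DMSO, and 39.4% and 37.6% in 4OHT. They were 23.9% and 22.2% with siRBM39 in DMSO, and 32.2% and 24.3% in 4OHT. The NRF1 axis list held NFE2L1 and NFE2L2, the small MAF partners, and the factors that extract, deglycosylate and cleave NRF1. With 4OHT 6 of its 10 genes rose, namely MAFF (2.03), MAFK (1.45), DDI2 (1.31), the protease that cleaves NRF1, MAFG (1.02), VCP (0.46) and SYVN1 (0.41), and NFE2L2 fell by 0.89. NFE2L1 itself was at 0.02 ± 0.04 (adjusted p = 0.718). With siSF3B1 7 rose in each treatment, NFE2L1 by 0.16 and 0.36, while VCP, the ATPase that extracts NRF1 from the membrane, fell by 0.98 and 1.15 and NGLY1, the glycanase that acts on NRF1, fell by 0.27 in 4OHT. With siRBM39 4 rose in each treatment, in DMSO MAFK (0.73), MAFF (0.65), NFE2L1 (0.23) and MAFG (0.20), and in 4OHT MAFK (0.73), DDI2 (0.36), NFE2L1 (0.24) and MAFG (0.14). NGLY1 fell by 0.97 in DMSO and 1.25 in 4OHT and VCP by 0.18 and 0.30.

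Of 15 partners of the proteasome (receptors, shuttles and assembly factors), 8 rose and 4 fell with 4OHT, where 39% of all genes rose and 39.1% fell. The falls were RAD23B (−0.54), AKIRIN2 (−0.32), SEM1 (−0.25) and ECPAS (−0.16), and among the rises were the ubiquitin receptor ADRM1 (0.86), the deubiquitinase UCHL5 that it holds (0.76) and the core assembly factor POMP (0.49). With siSF3B1 8 rose and 5 fell in DMSO (36.5% and 36.2% of all genes) and 7 rose and 6 fell in 4OHT (39.4% and 37.6%). ECPAS fell by 0.73 and 1.26 and PAAF1 by 0.85 and 1.03. In the interaction test 6 of the 15 were lower and 0 higher (19.9% and 17.9% of all genes). With siRBM39 4 rose and 2 fell in DMSO (23.9% and 22.2% of all genes), among them POMP (0.27), ADRM1 (0.31) and TXNL1 (0.10) up and PAAF1 (−0.51) and UBE3C (−0.26) down. In 4OHT 3 rose and 4 fell (32.2% and 24.3% of all genes), among them SEM1 (0.39) and TXNL1 (0.09) up and PAAF1 (−0.55), UBE3C (−0.40), UBQLN1 (−0.35) and UCHL5 (−0.26) down.

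Of the 8 tested genes of antigen presentation, the pathway that immunoproteasomes feed, 4 rose with 4OHT, where 39% of all genes did. They were TAP1 (0.97), IRF1 (0.96), ERAP2 (0.75) and TAPBP (0.34). ERAP1 fell by 0.55, where 39.1% of all genes fell. With siSF3B1 TAP1 rose by 0.45 in DMSO and ERAP2, ERAP1, TAPBP and NLRC5 fell (−0.64, −0.56, −0.47 and −0.20), where 36.5% of all genes rose and 36.2% fell. In 4OHT 7 of 8 fell while B2M rose by 0.22, where 37.6% of all genes fell and 39.4% rose. With siRBM39 4 rose and 1 fell in DMSO (23.9% and 22.2% of all genes), ERAP1 (0.42), NLRC5 (0.32), TAP1 (0.26) and B2M (0.12) up and TAPBP (−0.20) down. In 4OHT 3 rose and 2 fell (32.2% and 24.3% of all genes), among them NLRC5 (0.48), ERAP1 (0.38) and B2M (0.10) up and TAPBP (−0.21) down. Of the 5 genes for ubiquitin and its activating enzyme, UBB (0.39) and UBA1 (0.26) rose with 4OHT, where 39% of all genes rose. With siSF3B1 2 rose and 2 fell in each treatment, where 36.5% and 36.2% of all genes did in DMSO and 39.4% and 37.6% in 4OHT. Among them were UBB (0.26) up in DMSO, RPS27A (0.28) up in 4OHT and the activating enzyme UBA1 down in both (−0.27 and −0.43). With siRBM39 2 rose and 1 fell in each treatment, where 23.9% and 22.2% of all genes did in DMSO and 32.2% and 24.3% in 4OHT. UBB rose by 0.23 and 0.22 and UBA1 fell (−0.42 and −0.56).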

How the data were processed

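IMR90 ER:RAS cells were measured by mRNA sequencing in 48 libraries. The authors ran vast-tools with an annotation named hg19, while the coordinates of the events lie in GRCh38. Whether counting used strand is not given in the sources used here. The deposited gene table held counts per gene and cRPKM, the authors' RPKM per mappable length. The deposited event table held PSI in percent, with a coverage score, read numbers and, for introns, a balance p-value by the authors in the quality field. A deposited table of normalised CPM was not used here.

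Counts were tested with edgeR 4.0.16 (R 4.3.3; quasi-likelihood, TMM) in a model of 6 group means over genes that reached 10000 counts in sum, with Benjamini-Hochberg adjustment over all genes tested. CPM values are TMM-scaled. PSI was tested with limma 3.58.1 on the logit of 0.01 + 0.98 × PSI / 100, for exons and introns covered in all libraries whose PSI spanned 5 points or more. Introns with a balance p under 0.05 were dropped. Exons and introns were adjusted together. Named events also had a two-sided exact permutation test. Scripts were tested on simulated data. Python 3.11.15, numpy 2.4.6, pandas 2.3.3 and matplotlib 3.10.9 were used. The study's betAS test was not run.

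The members and gene lists (proteasome partners, NRF1 axis, antigen presentation, ubiquitin, fibroblast and other cell markers) were chosen with earlier results of these data known. Named were the catalytic and immunoproteasome subunits with PSME1 and PSME2, and per comparison the 5 called members without overlap that rose most and the 5 that fell most, the 5 largest interactions, list genes where 5 or fewer were counted (some are not reported here), and events where 5 or fewer were called, or otherwise the 3 largest. One 4OHT siNT2 library set carries siNT1 in another label field, and its title was followed. The labels give 4 replicates per siRNA, and the study's methods name fewer.

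Alternatives were limma-voom, DESeq2 1.42.0, other size factors and filters, each siRNA or control alone, 12 groups, a replicate block, leaving out replicates, and other thresholds for PSI. Leaving out 3 siRBM39 libraries was chosen after seeing the data.

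Same-numbered libraries were checked for pairing. Over 264 pairs of groups and numbers, the correlation of deviations from the group means ran from −0.91 to 0.81 with a median of 0.012, so the numbers were not taken to pair the libraries.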

Additional observations from a re-analysis of the deposited data

Results flagged for a closer look

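In each group of 8 libraries, the highest and lowest values of the 30 named members, the 8 named events and the share of counts in members were examined for a gap to the rest. The members not named were not examined in this way. In 33 of 234 groups 1 library stood apart, where chance alone gives about 1 in 20. Replicate 4 of siRBM39-08 in 4OHT was that library in 20 of the 33.

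It had the highest CPM of its group in PSMB5 (434), PSMB1 (226), PSMB7 (224), PSMB6 (120), PSMD2 (747), PSMD8 (253), PSMC4 (185), PSME2 (141), PSMA5 (123), PSMC6 (99.2), PSMD7 (87.1), PSME1 (75.9), PSMG3 (38.8), PSMB10 (38.6) and PSMB9 (6.40). It had the lowest CPM in PSME3 (151), PSMA6 (98.2), PSMD5 (44.5) and PSMD10 (29.5). Its share of counts in members was 0.645%.

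Single libraries of other groups stood apart more rarely. Replicate 1 of siRBM39-06 in DMSO was high in PSMB9 (8.52 CPM) and low in PSMD10 (39.4 CPM). Among DMSO siNT libraries, PSMA2 was high in replicate 4 of siNT2 (53.8 CPM), PSMD3 was low in replicate 2 of siNT2 (107 CPM), and PSMD5 (80.5 CPM) and PSMD7 (98.9 CPM) were high in replicate 1 of siNT1. The PSMD1 exon of 65 nt was low at a PSI of 94.6 in replicate 2 of siNT1 in DMSO, 93.7 in replicate 4 of siRBM39-06 in DMSO and 97.1 in replicate 3 of siRBM39-06 in 4OHT. The PSMA4 exon of 43 nt was low at 98.3 in replicate 4 of siRBM39-06 in DMSO and 97.9 in replicate 4 of siRBM39-06 in 4OHT, and the PSMD14 exon of 120 nt was low at 98.3 in replicate 3 of siNT2 in DMSO. The PSMD6 exon of 63 nt was high at 4.44 in replicate 2 of siSF3B1-16 in DMSO.

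The effect of siSF3B1 differed between 4OHT and DMSO by the interaction test in 21 members, by −0.85 for PSME4, −0.47 for PSMD14, −0.46 for PSME3, −0.45 for PSMG1 and −0.45 for PSMA6. The effect of siRBM39 differed in 8 members, by −0.33 for PSMD14, −0.31 for PSMD7, −0.24 for PSMA5, −0.22 for PSME3 and −0.21 for PSMA6. Of all genes 19.9% were lower and 17.9% higher in the siSF3B1 interaction, and 6.87% and 7.28% in that of siRBM39.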

How the results depend on the processing

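Of 509 alternative values of 32 counts and medians, 452 stayed within 1.5 times the count or within the spread of the median, and 57 moved. Rises and falls were counted together, so a shift between them was not seen. With siRBM39 in 4OHT 6 members rose and 11 fell, against 10 and 8 with the second siRNA and 2 and 14 without replicate 4. Over all 9991 genes these were 3216 and 2423, 3242 and 2726, and 2939 and 2460. The spread was 0.08 on the log2 scale, larger than some of the medians compared. For named genes, 110 of 129 log2 fold changes had no call lost and no called change of sign in any alternative, and of 2049 values 57 were no longer called, 43 became called and 7 changed sign. The causes were not tested. With the first siRNA of each target, the median of members became −0.018 for siSF3B1 in DMSO, −0.13 for its interaction and −0.17 for siSF3B1 against siRBM39 in DMSO (0.13 with the second siRNA), and siRBM39 called 28 members in DMSO and 24 in its interaction. With that first siRNA 3472 of the 9991 genes rose and 3409 fell with siRBM39 in DMSO, against 2387 and 2218 with all libraries. In its interaction 2496 were higher and 2073 lower, against 727 and 686. With siNT1 alone or siNT2 alone siRBM39 called 10 and 10 members in DMSO and 2 and 3 in its interaction, and siNT2 alone gave 11 in 4OHT. Over all 9991 genes siRBM39 then called 1599 up and 1650 down in DMSO with siNT1 alone, and 1550 and 1664 with siNT2 alone. In the interaction these were 223 and 314, and 325 and 303. In 4OHT siNT2 alone gave 2232 and 1890. Leaving out single replicates or replicate 4 of siRBM39-08 gave 10 to 24 members for siRBM39 in DMSO, 12 to 18 in 4OHT (median −0.072 to 0.028) and 2 to 20 in its interaction (median −0.20 to −0.071), and a median of −0.19 to −0.055 for siSF3B1 against siRBM39 in 4OHT. In these settings 1661 to 2980 of the 9991 genes rose and 1670 to 2601 fell with siRBM39 in DMSO. In 4OHT 2621 to 3308 rose and 2028 to 2705 fell. In its interaction 324 to 1309 were higher and 322 to 1190 lower. Without the 3 siRBM39 libraries the median was −0.065 for siRBM39 in 4OHT and −0.055 for siSF3B1 against siRBM39 in 4OHT, with 32 members in the siSF3B1 interaction and 16 in that of siRBM39. Of the 9991 genes 2531 were then higher and 2767 lower in the siSF3B1 interaction, and 1313 and 1178 in that of siRBM39. With no minimum difference, called exons were 1 with 4OHT, 35 with siSF3B1 in DMSO, and 7 and 10 with siRBM39 in DMSO and 4OHT, and called introns were 18 and 21 with siSF3B1 and 4 and 4 with siRBM39. Of all 7673 exons, 52 rose and 122 fell with 4OHT, and 221 and 3672 with siSF3B1 in DMSO. With siRBM39 146 rose and 1002 fell in DMSO, and 138 and 1064 in 4OHT. Of all 5248 introns, 2046 rose and 108 fell with siSF3B1 in DMSO, and 2522 and 79 in 4OHT. With siRBM39 445 and 30 did in DMSO, and 428 and 29 in 4OHT. At a minimum of 10 points, exons were 9 and 15 with siSF3B1 and 0 and 0 with siRBM39, and introns with siRBM39 were 1 and 0. Of all exons 35 then rose and 1040 fell with siSF3B1 in DMSO, and 38 and 1257 in 4OHT. With siRBM39 40 and 276 did in DMSO, and 54 and 332 in 4OHT. Of all introns 30 rose and 3 fell with siRBM39 in DMSO, and 28 and 1 in 4OHT. With no balance filter, introns were 8 and 8 with siSF3B1 and 6 and 6 with siRBM39, of 63 member introns tested. Of all 8557 introns 2007 then rose and 74 fell with siSF3B1 in DMSO, and 2473 and 64 in 4OHT. With siRBM39 548 and 35 did in DMSO, and 575 and 45 in 4OHT. Leaving out replicates gave 0 to 1 and 0 to 2 introns with siSF3B1, 1 to 2 introns with siRBM39 in DMSO, and 1 to 3 exons with siRBM39 in each treatment. Of all introns 532 to 615 rose with siSF3B1 in DMSO and 768 to 786 in 4OHT, and 89 to 108 with siRBM39 in DMSO. Of all exons 472 to 542 fell with siRBM39 in DMSO and 542 to 604 in 4OHT. The second siRNA gave 2 exons with siRBM39 in DMSO and 1 and 4 introns with siSF3B1, and the first 2 introns with siSF3B1 in 4OHT and 1 and 0 with siRBM39. With the second siRNA 476 of all exons fell with siRBM39 in DMSO, and 521 and 745 of all introns rose with siSF3B1. With the first 820 of all introns rose with siSF3B1 in 4OHT, and 91 and 89 with siRBM39. The plain logit gave 0 and 0 introns with siRBM39, of 1 member intron tested, and had no member exon to test. Of all 92 introns it called 32 up and 2 down with siRBM39 in DMSO, and 35 and 3 in 4OHT. The sign changed for PSMB10 (−0.23) and PSME2 (−0.14) with siRBM39 in 4OHT and for PSMB5 between knockdowns in 4OHT (0.11) without the 3 libraries, for PSME2 with siRBM39 in 4OHT without replicate 4 (−0.15, the range over replicates left out being −0.15 to 0.12) or replicate 4 of siRBM39-08 (−0.14), and for PSMB5 in the siRBM39 interaction with the first siRNA (−0.36) or without replicate 4 (−0.36, range −0.36 to 0.15). A replicate block gave 36 members with 4OHT, 36 and 32 with siSF3B1, 17 and 16 with siRBM39, 20 and 8 in the interactions, and 18 and 26 exons with siSF3B1. Over all 9991 genes the block gave 3872 up and 3891 down with 4OHT. With siSF3B1 it gave 3622 and 3597 in DMSO, and 3924 and 3724 in 4OHT. With siRBM39 it gave 2343 and 2160, and 3120 and 2398. The interactions gave 1735 and 1944, and 679 and 654. Of all exons 1975 and 2220 fell with siSF3B1. The replicate numbers do not pair the libraries, and 15 of 48 libraries correlated best with their own number. The intron of PSME3 rests on 20 to 50 reads per library.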
